A study of Mus musculus with 9 samples.

Results

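The immunoglobulin heavy and light chain probes of the array are described here in splenic dendritic cells with and without the transcription factor C/EBPβ. They were taken as every probe with at least 1 annotated symbol of an immunoglobulin heavy, kappa or lambda gene segment or constant region, probes with several symbols included. There were 34 of them among 34468 probes with a value in every sample, and all 34 had values in all samples. The rule uses no measured value, but it was set with earlier results of these data known. The compared groups were 3 knockout samples (genotype C/EBPbeta-/-, from CD11c.Cre x C/EBPβflox/flox mice) and 6 control samples (genotype C/EBPbeta+/+), all naive and on a C57BL/6 background, and the labels gave no age. The labels name C57BL/6 as well as CD11c.Cre mice as sources and do not tell which controls carried the Cre. The Cre is driven by the CD11c promoter, so Cebpb is left intact in cells that never express it. The cells were sorted as CD11c+ and MHC class II+, and the sort purity stated in the labels leaves room for a small share of other spleen cells. No label says whether samples came from separate animals, so each p-value rests on the spread among samples that could be technical repeats. Samples are called knockout 1 to 3 and control 1 to 6 by their labelled replicate number.

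Immunoglobulins are made by B cells and, in far larger amounts, by plasma cells. A heavy chain (Igh) pairs with a kappa (Igk) or lambda (Igl) light chain, and each chain joins a variable region, assembled from variable, joining and, in heavy chains, diversity segments, to a constant region. Ighm encodes the constant region of IgM, and Ighg3 that of IgG3. Variable segments of 1 subfamily resemble each other closely, so a probe of 1 segment can also read its relatives, and a value stands for that probe's target rather than for 1 gene with certainty.

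The 34 probes carried 23 different symbols. All 23 matched the mouse RefSeq table (assembly GRCm38.p6), where 20 are variable segments, 1 is a joining segment and 2 are constant regions. The heavy chain symbols lie on chromosome 12 (6 symbols), the kappa symbols on chromosome 6 (16 symbols) and the single lambda symbol on chromosome 16. By class, 9 probes had a heavy constant symbol alone (7 Ighm and 2 Ighg3), 3 a heavy variable symbol alone, 15 a kappa variable symbol alone, 1 the kappa joining symbol Igkj1 alone and 1 the lambda variable symbol Iglv1. The other 5 had several symbols, of which 2 joined heavy variable to constant symbols, 2 joined kappa symbols and 1 joined heavy and kappa symbols. The RefSeq table holds 395 immunoglobulin symbols, and those beyond the 23, the kappa and lambda constant regions among them, were not analysed here under a name.

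Cebpb, the deleted gene, had log2 intensities of 5.37, 5.60 and 5.42 in the knockouts, against 6.64 to 7.15 in the controls. Its difference, knockout minus control, was -1.35 (SE 0.11, limma's adjusted p = 0.00069). Array medians lay between 5.49 and 5.56 and correlations between arrays across probes between 0.987 and 0.996. Of the dendritic cell markers, 0 of 11 measured passed limma's test in either direction (1 higher and 0 lower at an unadjusted p under 0.05), with a median difference of -0.034. H2-Ab1, a chain of MHC class II, had 13.69 to 13.75 in the knockouts, against 13.65 to 13.71 in the controls. This marker of the sort was thus bright in every sample, which alone does not tell dendritic cells from other cells with MHC class II. Cd209a, a C-type lectin of dendritic cells, had 11.87, 11.67 and 11.55 in the knockouts, against 11 to 11.40 in the controls (difference 0.54, limma's adjusted p = 0.059).

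Immunoglobulin probes were higher in the knockout samples. The difference on the log2 scale was above 0 in 34 of 34 probes, against 16335 of all 34468. Some of the 34 share a symbol or can read relatives, so they are not independent observations. Their median difference was 1.51, with a range of 0.14 to 3.86, beside a median of -0.0077 over all probes. By limma with Benjamini-Hochberg adjustment over all probes, 8 of the 34 rose and 0 fell (29 and 0 at an unadjusted p under 0.05). Among all probes tested, 0.339% were called higher and 0.191% lower, together 0.531%, and at the unadjusted threshold 5.21% were higher and 6.82% lower. In 19 of the 34 every knockout value lay above every control value and in 0 below, which held for 2.58% and 3.84% of all probes. The 8 called probes rose by 2.65-fold to 14.6-fold, and 27 of the 34 differed by at least 2-fold.

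The number called rested on single samples. With 1 sample left out it was 10 (without knockout 1), 1 (without knockout 2) and 1 (without knockout 3), when 0.351%, 0.151% and 0.319% of all probes were called higher. It was 12, 4, 6, 3, 3 and 4 as controls 1 to 6 were left out in turn, when 0.293%, 0.229%, 0.22%, 0.136%, 0.139% and 0.139% of all probes were. Calls over all probes thus also fell in most of these fits, but without knockout 3 they stayed at 110, against 117 with every sample. Over these 9 fits, the median difference ranged from 1.21 to 1.80, with 33 or 34 probes above 0. The direction thus held in nearly all probes, whereas the calls did not.

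The largest difference of a single probe was that of Igkv6-23, a kappa variable segment. It had log2 intensities of 6.54, 8.78 and 7.33 in the knockouts, against a lowest value of 3.04, a median of 3.38 and a highest value of 5.10 in the controls. All knockouts lay above all controls, and knockout 2 was the highest. The difference was 3.86 (SE 0.54, limma's adjusted p = 0.017), and the call was lost without knockout 2, knockout 3, control 4 or control 5 (largest adjusted p = 0.066). Igkv9-120 had 10.73, 11.61 and 11.75 in the knockouts, against 7.60, 8.13 and 8.99 (lowest, median and highest) in the controls. The groups did not overlap, and the difference was 3.12 (SE 0.31, limma's adjusted p = 0.0026). Of the 8 called probes it alone stayed past 0.05 in all 9 fits that left out a sample, with a largest adjusted p of 0.022.

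Of the 15 probes with 1 kappa variable symbol, 4 rose and 0 fell, 13 were higher at an unadjusted p under 0.05, and the median difference was 1.73. Beside Igkv6-23 and Igkv9-120, the called probes were Igkv9-124 and Igkv1-133. Igkv9-124 had 5.36, 6.44 and 5.57 in the knockouts, against 2.75, 3.56 and 4.72 (lowest, median and highest) in the controls. Again the groups did not overlap, with a difference of 2.18 (SE 0.39, limma's adjusted p = 0.046), but the call was lost in 8 of the 9 fits without a sample (largest adjusted p = 0.18), that without control 1 being the exception. Igkv1-133 had 7.18, 7.42 and 7.53 in the knockouts, against 5.61, 5.92 and 6.56 in the controls. Its knockout values lay close together (SD 0.18), and the difference was 1.40 (SE 0.19, limma's adjusted p = 0.014), lost without knockout 2 or 3.

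Of the 14 kappa probes that did not pass, 6 still had every knockout above every control. Igkv6-14 had 5.44, 6.23 and 6.43 in the knockouts, against 2.99, 3.91 and 4.73 in the controls (difference 2.15, SE 0.40, limma's adjusted p = 0.055, the smallest among the 26 uncalled probes). Igkv15-103 had 8.91, 10.80 and 10.24 in the knockouts, against 7.02, 8.29 and 8.60 in the controls (difference 1.93, SE 0.44, adjusted p = 0.096). The joining segment probe Igkj1 had 8.63, 10.0 and 10.21 in the knockouts, against 6.17, 7.49 and 8.24 in the controls (difference 2.34, SE 0.51, adjusted p = 0.079). In these probes the control values were wide apart, with SDs of 0.74, 0.65 and 0.87 (n = 6).

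Both remaining multi-symbol kappa probes were bright in every sample. The probe of Igkv4-53, Igkj1 and Igkv6-23 had 12.52, 13.02 and 13.30 in the knockouts, against 10.95, 11.39 and 12.37 in the controls (difference 1.37, SE 0.33, limma's adjusted p = 0.11), and the groups did not overlap. The probe of Igkv9-124 and Igkv4-70 had 12.20, 12.77 and 12.96 in the knockouts, against 10.64, 11.13 and 12.36 in the controls (difference 1.32, SE 0.33, adjusted p = 0.12). Here control 1 lay above knockout 1.

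By variable subfamily, the 2 Igkv6 and the 2 Igkv9 probes with 1 symbol had median differences of 3.01 and 2.65, and in all 4 the groups did not overlap. The 4 Igkv4 probes (Igkv4-91, Igkv4-72, Igkv4-70 and Igkv4-59) had differences of 1.82, 1.66, 1.53 and 1.09. None of the 4 was called (0 past the adjusted threshold, 3 at an unadjusted p under 0.05), and in all 4 the groups overlapped. Their control SDs were large, from 0.67 for Igkv4-91 to 1.33 for Igkv4-59. Igkv4-72 had 8.83, 10.02 and 10.86 in the knockouts, against 7.52, 7.73 and 9.58 in the controls, and Igkv4-70 had 8.36, 9.35 and 10.04 in the knockouts, against 6.71, 7.36 and 8.96. Igkv4-59 had 6.28, 6.81 and 7.33 in the knockouts, against 4.12, 5.59 and 7.70 in the controls, so that its highest value was that of control 3. Differences between subfamilies were not tested.

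The smallest kappa differences were those of the Igkv8 probes. Igkv8-19 had 4.41, 4.48 and 5.16 in the knockouts, against 3.83, 3.99 and 4.22 in the controls (difference 0.67, limma's adjusted p = 0.095). The groups did not overlap, and the controls lay close together (SD 0.14). Igkv8-30 had 7.01, 6.14 and 6.98 in the knockouts, against 5.25, 6.17 and 6.85 in the controls (difference 0.66, adjusted p = 0.47), and knockout 2 lay within the control range.

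Igkv5-43 was read by 3 probes with this symbol alone, and 0 of them passed (3 higher at an unadjusted p under 0.05). Probe 17467489 had 7.35, 7.77 and 7.66 in the knockouts, against 4.91, 5.48 and 6.66 in the controls (difference 1.89, limma's adjusted p = 0.057). Probe 17467483 had 6.41, 6.67 and 8.05 in the knockouts, against 4.01, 5.44 and 6.51 in the controls (difference 1.73, adjusted p = 0.20). Probe 17459421 had 11.46, 12.19 and 12.65 in the knockouts, against 10.22, 10.61 and 11.77 in the controls (difference 1.24, adjusted p = 0.22). The groups were apart for the first probe and overlapped for the other 2.

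Iglv1, the single lambda probe, had 7.31, 7.80 and 8.68 in the knockouts, against 6.59, 6.96 and 7.96 in the controls. The highest control exceeded 2 of the knockouts, and the difference was 0.86 (SE 0.34, limma's adjusted p = 0.34).

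Of the 3 heavy variable probes, 1 rose and 0 fell. It was Ighv1-53, which had 9.19, 9.95 and 9.78 in the knockouts, against 7.34, 8.08 and 8.59 (lowest, median and highest) in the controls. The groups did not overlap, and the difference was 1.59 (SE 0.28, limma's adjusted p = 0.041). It missed the threshold without knockout 2 or 3, and without control 2, 3, 4, 5 or 6 (largest adjusted p = 0.17). Ighv1-54 had 4.11, 4.27 and 4.65 in the knockouts, against 2.32, 3.05 and 4.65 in the controls (difference 1.11, adjusted p = 0.36). Ighv1-47 had 2.62, 3.18 and 4.47 in the knockouts, against 2.72, 2.87 and 3.07 in the controls. In Ighv1-47 knockout 1 was below every control and knockout 3 stood apart, and the difference was 0.55 (SE 0.31, adjusted p = 0.53).

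Among the 3 probes that joined an Ighm symbol to variable segments, the groups did not overlap in any. The probe of Ighv1-72 and Ighm rose, with 9.55, 10.29 and 10.53 in the knockouts, against 8.12, 8.52 and 9.06 in the controls (difference 1.56, SE 0.26, limma's adjusted p = 0.037). That call was lost without knockout 2 or 3 or control 2, 4, 5 or 6 (largest adjusted p = 0.16). The probe of Ighg3, Ighv1-47 and Ighm had 11.29, 11.99 and 12.42 in the knockouts, against 10.01, 10.20 and 11.22 in the controls (difference 1.48, SE 0.31, adjusted p = 0.071). The probe that joins Ighv1-54, Igkv1-135 and Ighm had 11, 11.66 and 11.90 in the knockouts, against 9.36, 9.64 and 10.84 in the controls (difference 1.64, SE 0.31, adjusted p = 0.057).

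The probes annotated to constant regions alone covered a wide range of differences. Of the 7 with the symbol Ighm, 2 rose and 0 fell (6 and 0 at an unadjusted p under 0.05), and their differences ranged from 0.17 to 2.48. Probe 17284605 had 10.10, 10.90 and 10.99 in the knockouts, against 8.0, 8.27 and 9.09 (lowest, median and highest) in the controls. The difference was 2.20 (SE 0.30, limma's adjusted p = 0.015), lost without knockout 2 or 3 (largest adjusted p = 0.080). Probe 17284648 had 8.97, 9.63 and 10.72 in the knockouts, against 7.26, 7.45 and 8.35 in the controls. Its difference of 2.14 (SE 0.36, adjusted p = 0.037) was lost in 7 of the 9 fits without a sample, those without knockout 1 or control 1 being the exceptions. The groups overlapped in neither probe.

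The largest Ighm difference was not called. Probe 17284660 had 8.09, 7.08 and 10.48 in the knockouts, against 4.89, 6.27 and 6.67 in the controls, a difference of 2.48 with an SE of 0.65 (limma's adjusted p = 0.13). All knockouts lay above all controls, but knockout 3 stood far above knockouts 1 and 2 (knockout SD 1.75). At the other end, probe 17284349 had 12.04, 11.85 and 12.68 in the knockouts, against 11.91, 12.01 and 12.20 in the controls. Its difference was 0.17 (SE 0.15, adjusted p = 0.74), and 1 sample, knockout 3, lay above the control range. Probe 17284360 had 11.88, 12.27 and 12.77 in the knockouts, against 11.44, 11.73 and 12.31 in the controls (difference 0.51, adjusted p = 0.37), and again knockout 3 was the 1 sample above all controls.

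The remaining 2 Ighm probes lay between these. Probe 17284507 had 8.24, 8.50 and 9.33 in the knockouts, against 6.81, 7.35 and 8.06 in the controls (difference 1.32, limma's adjusted p = 0.11), with no overlap. Probe 17284503 had 6.10, 6.51 and 7.91 in the knockouts, against 4.91, 5.96 and 6.31 in the controls (difference 1.08, adjusted p = 0.30). Which part of the gene each Ighm probe reads was not analysed here.

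Neither Ighg3 probe was called. Probe 17284344 had 6.86, 6.66 and 9.33 in the knockouts, against 6.12 to 6.39 in the controls. All knockouts lay above all controls, but knockout 3 was far above the other 2, and the difference of 1.36 had an SE of 0.47 (limma's adjusted p = 0.27). Without knockout 3 it was 0.50. Probe 17284614 had 5.07, 5.94 and 5.73 in the knockouts, against 5.13, 5.38 and 5.99 in the controls, and the difference was 0.14 (adjusted p = 0.86).

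The knockout samples differed among themselves. The median deviation of the 34 probes from the control mean was 0.91 in knockout 1, 1.44 in knockout 2 and 1.96 in knockout 3, against -0.42 to 0.68 in the controls. Knockout 3 was the highest knockout in 26 probes, knockout 2 in 7 and knockout 1 in 1, and knockout 1 was the lowest in 30. Knockout 1 lay above every control in 20 of the 34 probes, knockout 2 in 27 and knockout 3 in 31. The class medians put the knockouts in the same order in heavy constant and kappa variable probes. Their spacing differed, which was not tested. Of the 9 heavy constant probes, knockout 3 was highest in 8, with a class median of 2.15, against 0.60 and 0.75 in knockouts 1 and 2. Of the 15 kappa variable probes, it was highest in 9 and knockout 2 in 5, and the class medians were 1.05, 1.77 and 1.96, against -0.64 to 0.85 in the controls. The 5 in which knockout 2 led were Igkv6-23, Igkv9-124, Igkv15-103, Igkv4-91 and Igkv5-43 (probe 17467489).

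The spread was wide in the controls too. The SD over the 6 controls had a median of 0.57 over the 34 probes, against 0.13 over all probes, and in 29 of the 34 it lay above the 95th percentile of all probes. Controls 1 and 3 were the 2 highest controls in 27 of the 34 probes, against only 3355 of all 34468. Against the mean of the other 5 controls, control 1 was higher by a median of 0.82 and control 3 by 0.56, each above that mean in 33 of 34 probes. Controls 2, 4, 5 and 6 had medians of -0.37, -0.49, -0.12 and -0.51. Apart from the replicate number, the labels used here do not tell controls 1 and 3 from the others, and what sets their level was not tested.

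B cell markers other than immunoglobulins showed no call. Of 17 listed, 15 were measured, 0 passed limma's test in either direction (3 higher and 0 lower at an unadjusted p under 0.05), and the median difference was 0.17. By sample, the list's median deviation was 0.065 in knockout 1, -0.079 in knockout 2 and 0.55 in knockout 3, against -0.064 to 0.13 in the controls. Knockout 3 lay above all controls in 13 of the 15 genes, knockout 1 in 4 and knockout 2 in 1. The log2 of the summed intensity of the list was 11.69 to 12.64 in the knockouts, against 11.85 to 11.96 in the controls. Blnk, a linker protein of B cell receptor signalling and the gene of the list with the smallest p, had 7.06, 6.92 and 7.96 in the knockouts, against 6.29 to 6.87 in the controls (difference 0.71, SE 0.22, limma's adjusted p = 0.20), with no overlap. Blk, a kinase of the same pathway, had 8.08, 7.26 and 7.99 in the knockouts, against 7.23 to 7.43 in the controls (difference 0.45, adjusted p = 0.26). The early B cell factor Ebf1 had 6.36, 5.67 and 7.16 in the knockouts, against 5.73 to 6.23 in the controls. Knockout 2 was the lowest knockout in all 3 genes. Cd79a, a signalling chain of the B cell receptor, had 8.67, 7.74 and 10.21 in the knockouts, against 7.29 to 8.24 in the controls. The 2 brightest genes of the list were Cd22, an inhibitory coreceptor, and Bank1, a scaffold protein, with differences of -0.16 and -0.051. Ms4a1, which encodes the B cell surface protein CD20 and was chosen after its values were seen, had 8.34, 8.32 and 8.64 in the knockouts, against 8.27 to 8.57 in the controls. In knockout 2, Blnk lay above the controls and the other 14 measured genes did not. The median deviation of the 34 immunoglobulin probes was 0.91, 1.44 and 1.96 in knockouts 1 to 3. Knockout 3 was thus the highest for both sets, whereas knockout 2 was the lowest for the B cell list alone. By median deviation, knockout 3 was also the highest knockout for most other gene lists. The exceptions were dendritic cells, T cells, neutrophils and red pulp macrophages. The part of B cells in the immunoglobulin levels was not tested, and in these bulk samples more cells of a type and more RNA per cell cannot be told apart.

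Of 17 plasma cell genes without immunoglobulins, all measured, 1 rose and 0 fell (6 and 0 at an unadjusted p under 0.05), with a median difference of 0.13. The gene that rose was Prdm1, the transcription factor Blimp-1, which acts in plasma cells and also in dendritic cells. It had 8.22, 8.18 and 8.18 in the knockouts, against 7.48 to 7.76 in the controls (difference 0.56, SE 0.068, limma's adjusted p = 0.0080). The call was lost with controls 1 to 3 alone (adjusted p = 0.16), with the replicate number as a block (adjusted p = 0.47) and under a 1.5-fold minimum. Jchain encodes the chain that joins IgM and IgA units. It had 8.63, 9.76 and 8.85 in the knockouts, against 7.91, 6.52, 8.06, 6.81, 7.03 and 6.83 in controls 1 to 6. Knockout 2 was highest, and controls 1 and 3 stood above the other controls, as they did in 27 of the 34 immunoglobulin probes. Controls 1 and 3 were also the 2 highest for Prdm1 and Sdc1, but not for the other genes of the list. The difference of Jchain was 1.89 (SE 0.37, adjusted p = 0.059).

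The naming rule also took the plasma cell genes Tnfrsf17 and Edem1. Tnfrsf17 had 4.90, 4.60 and 4.74 in the knockouts, against 4.25 to 4.60 in the controls (difference 0.27, limma's adjusted p = 0.31). Edem1 had 10.68, 10.58 and 10.33 in the knockouts, against 10.20 to 10.40 in the controls (difference 0.23, adjusted p = 0.29). The plasma cell genes Xbp1, Sdc1 and Mzb1 were chosen after their values were seen, and none of them passed. Xbp1, a transcription factor of the secretory pathway, had 10.16, 10.19 and 9.91 in the knockouts, against 9.97 to 10.09 in the controls. Sdc1, a surface proteoglycan of plasma cells, had 5.62, 5.71 and 5.77 in the knockouts, against 5.47 to 5.79 in the controls. Mzb1, a chaperone of B and plasma cells, had 6.37, 6.10 and 7.43 in the knockouts, against 5.87 to 6.34 in the controls. Its difference was 0.54 (limma's unadjusted p = 0.047, adjusted p = 0.40). The log2 of the summed intensity of the list was 13.70 to 13.78 in the knockouts, against 13.61 to 13.67 in the controls. That sum is weighted toward the brightest genes. The brightest was Slamf7, with 12.45, 12.47 and 12.54 in the knockouts, against 12.32 to 12.52 in the controls. The sum is thus no measure of plasma cell RNA, and the part of plasma cells was not tested.

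Genes that build, diversify or transcribe immunoglobulin genes showed no call. Of 8 measured, 0 passed limma's test (1 higher and 1 lower at an unadjusted p under 0.05), with a median difference of 0.068. Pou2af1, the octamer coactivator of B cells, had 6.71, 6.35 and 7.81 in the knockouts, against 5.87 to 6.65 in the controls (difference 0.70, adjusted p = 0.35). Ung, the uracil glycosylase that acts in class switching, had 6.75, 6.61 and 6.66 in the knockouts, against 6.79 to 7.01 in the controls (difference -0.20).

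Of the receptors that bind immunoglobulin, 1 of 14 rose and 0 fell (4 higher and 2 lower at an unadjusted p under 0.05), with a median difference of 0.19. It was Fcgr2b, the inhibitory receptor for IgG, with 11.08, 10.96 and 11.16 in the knockouts, against 10.16 to 10.62 in the controls (difference 0.74, SE 0.097, limma's adjusted p = 0.012). It was not called with controls 1 to 3 alone (adjusted p = 0.28) or with the block (adjusted p = 0.48). Controls 1 and 3, high in immunoglobulin probes, had 10.36 and 10.16 for Fcgr2b. The activating receptors Fcgr1, Fcgr3 and Fcgr4 differed by 0.80, 0.67 and 0.78 and did not pass (adjusted p = 0.096, 0.13 and 0.10).

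Of the marker lists of other cells, those of T cells, NK cells, neutrophils, erythroid cells, platelets, plasmacytoid dendritic cells and red pulp macrophages had 0 members called by limma. Their median differences were 0.074, -0.038, 0.052, 0.091, -0.0043, 0.22 and 0.60, and at an unadjusted p under 0.05, 1, 0, 1, 1, 0, 2 and 5 members were higher and 0 lower. The median deviation of the red pulp macrophage list was 0.33, 0.77 and 0.72 in the knockouts. Among the controls it was highest in control 2 (0.53) and lowest in control 3 (-0.52). Of the controls high in immunoglobulin probes, control 1 thus had 0.14 and control 3 had -0.52. The log2 of this list's summed intensity was 12.81 to 13.23 in the knockouts, against 11.93 to 13.07 in the controls. In the monocyte list 1 of 8 rose, Ace, which encodes angiotensin-converting enzyme (difference 1.16, adjusted p = 0.015), with a list median of 0.19. That call was lost with controls 1 to 3 alone (adjusted p = 0.28), with controls 4 to 6 alone (adjusted p = 0.11) and with the block (adjusted p = 0.48). The part of these cells in the immunoglobulin levels was not tested.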

How the data were processed

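RNA of 9 samples was hybridised to single-channel arrays, 1 for each. The deposited table holds log2 intensities, which the authors summarised with RMA (background correction, quantile normalization and a summary over each probe's short oligonucleotides) according to the submitters' processing notes. Such summaries compress changes of dim probes. RMA's version and settings and the genome build were not given in the sources used here, and that the scale is log2 was judged from the values. Of 41801 rows, 7329 had no value (190 array control probes among them) and 4 lacked some, which left 34468 probes. Symbols came from the platform annotation, and 9133 probes had none. The number of arrays limits the precision.

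Knockout minus control was fitted to all 34468 probes in limma 3.58.1 under R 4.3.3 (lmFit, then eBayes, no covariate, two-sided), with Benjamini-Hochberg adjustment over all of them at 0.05. List genes were read by a probe with 1 symbol. The naming rule took every constant region probe, in each variable class the probes with the 6 smallest p, the 2 brightest and the 2 lowest differences, and made up to 4 genes of each list with the smallest p and the 2 brightest eligible, of which some were named. Further immunoglobulin probes were named to account for all 34, and Ms4a1, Cd79b, Xbp1, Sdc1 and Mzb1 after their values were seen. The members, lists, tests and alternatives were chosen with earlier results of these data known. Alternatives were array centring, a further quantile normalization, trend and robust eBayes, array weights, the replicate block, subsets of controls, each sample left out, a signal filter, probes with 1 symbol, 1 probe per gene and a 1.5-fold minimum. The fit was tested on simulated data. Tables were made with Python 3.11.15 and pandas 2.3.3.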

Additional observations from a re-analysis of the deposited data

Results flagged for a closer look

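In 101 immunoglobulin probes and named list genes, the 6 controls were tested for a single value far from the others by Dixon's gap-to-range ratio, which chance alone carries past its critical value in about 1 of 20 groups. It was passed 10 times. Among the immunoglobulin probes it was passed once, by Igkv4-91 (probe 17467398), at 8.06 in control 3 with the nearest other control at 6.89. In the lists, Ebf1, a B cell transcription factor, was at 6.23 in control 1 (nearest 5.90), Dntt, the template-free polymerase of immunoglobulin assembly, at 4.14 in control 2 (nearest 3.84), and Pou2f2, an octamer-binding factor, at 7.78 in control 2 (nearest 7.57). Tcf4 was at 8.41 and Cox6a2 at 5.75 in control 4 (nearest 8.52 and 6.08). Cd3d was at 5.34 and Ltf at 5.42 in control 1 (nearest 5.44 and 5.19), Cd3g at 4.22 in control 5 (nearest 4.33) and Treml4 at 10.92 in control 3 (nearest 11.27).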

How the results depend on the processing

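Over the alternatives run, the median difference over the immunoglobulin probes stayed between 1.13 and 1.81, and 0 probes were called lower by limma (0 at an unadjusted p under 0.05). The number called higher, with the share of all probes called higher in the same fit, was 11 with array centring (0.374%), 10 with a further quantile normalization (0.444%), 11 with trend and robust fitting (0.429%), 15 with array weights (0.85%), 10 of 27 above the median signal (1.22%), 9 of 29 with 1 symbol (0.357%) and 6 of 20 with 1 probe per gene (0.415%). It was 8 with a 1.5-fold minimum, which could remove none, as the called probes rose by at least 2.65-fold. With controls 4 to 6 as the only controls 3 were called (0.0696% of all probes), with controls 1 to 3 as the only ones 0 (20 at an unadjusted p under 0.05, and 0.029% of all probes called), and with 1 sample left out 1 to 12. With the replicate number as a block the count was 0 (21 at an unadjusted p under 0.05, median difference 1.13), in a fit that called 5 of all probes higher and in which controls 4 to 6, without a partner, add nothing to the difference. The numbers are only shared, not known to pair samples: deviations of same-numbered samples correlated at -0.16, -0.098 and 0.050, and 0 of 3 knockouts correlated best with the control of its own number. Direction turned in at least 1 alternative for 4 probes or genes and for the medians of 3 lists. Leaving out 1 sample gave -0.080 to 0.33 for Ighm probe 17284349, -0.040 to 0.39 for Ighg3 probe 17284614, -0.19 to 0.29 for Cd79b and -0.066 to 0.091 for Ms4a1. Array weights gave -0.061 for Cd79b and -0.027 for Ms4a1. The median difference over dendritic cells was 0.013 with the block or controls 1 to 3 and 0.0023 without knockout 1. The median difference over NK cells was 0.073 above the median signal, where 1 gene was left, and 0.0029 without knockout 2. The median difference over platelets was 0.066 without knockout 2 and 0.052 without control 4. The cause of the other changes was not tested. Background of dim probes was not measured.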

Other observations

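Most of the large increases in these data lay on probes without a gene symbol. Of 175 probes with a log2 difference of at least 1, 27 were immunoglobulin probes, 24 had other symbols and 124 (70.9%) had none, while 26.5% of all probes had none. Among 8 probes with a difference of -1 or less, 3 had none.

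Many of the unnamed probes have IDs that lie between those of immunoglobulin probes, and no gene name is given to them here. In the 3 runs of IDs spanned by 33 immunoglobulin probes there were 189 unnamed probes, of which 169 had a difference above 0 and 28 (14.8%) were called higher by limma and 0 lower, with a median difference of 1.02. All knockouts lay above all controls in 75 of them, and control replicates 1 and 3 were the 2 highest controls in 81. Among the 8944 unnamed probes elsewhere these counts were 190 and 960. The 100 unnamed probes in the heavy chain run had a median difference of 1.01 with 18 called higher, and the 40 and 49 in the kappa runs had 1.01 and 1.15 with 5 called higher in each. The 8944 unnamed probes elsewhere had a median difference of 0.01, with 23 called higher (0.257%) and 2 lower. In the heavy chain run, 1 probe had a symbol outside the naming rule, Igh-VS107, a heavy variable segment, which differed by 1.55 (adjusted p = 0.17).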
